A study of Homo sapiens with 15 samples.

Results

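The genes described here encode the subunits of integrins and laminins. They were taken by name from the protein-coding genes of both deposited count tables: every integrin alpha gene (ITGA), every integrin beta gene (ITGB) and every laminin alpha, beta or gamma chain gene (LAMA, LAMB, LAMC). This gave 38 genes present in both tables (18 ITGA, 8 ITGB and 12 laminin chain genes), of 20327 protein-coding genes in the MG-63 table and 19961 in the Saos2 table. The MG-63 table held 1 further ID under the name ITGB3, a transcript that joins ITGB3 to its neighbor EFCAB13, with 0 counts in every library.

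MG-63 and Saos2 are human osteosarcoma cell lines, both labelled wild type and both cultured in high-glucose DMEM with heat-inactivated fetal bovine serum. They were treated for 24 h with didesmethylrocaglamide (DDR), rocaglamide (Roc) or 0.04% DMSO vehicle, and polyadenylated RNA was sequenced. DDR and Roc are rocaglates, plant compounds that inhibit the RNA helicases eIF4A1 and eIF4A2 of translation initiation. MG-63 received 5 nM DDR or 25 nM Roc (2 libraries a group) and Saos2 received 7 nM DDR or 40 nM Roc (3 libraries a group), each dose being the growth-inhibitory IC50 of that compound in that line, so the compounds and the lines were compared at unequal molar doses. Both compounds in a line share the same DMSO libraries, and the labels name the libraries biological replicates, with 1 exception, the second Roc library of MG-63, labelled simply a replicate. If they were not separate cultures, p-values would measure technical spread only.

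Integrins are receptors of the cell surface made of 1 alpha and 1 beta chain, and the alpha chain largely sets which matrix protein is bound. Laminins are trimers of 1 alpha, 1 beta and 1 gamma chain that build basement membranes and are themselves integrin ligands. In bone, integrins anchor osteoblast-lineage cells to collagen, fibronectin, vitronectin and bone sialoprotein, and a surface receptor forms only when both of its chains are made.

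Sequencing depth, as summed gene counts, was 24506297 to 42541127 in MG-63 libraries and 28838167 to 39787425 in Saos2 libraries. Levels below are CPM, a gene's counts relative to the total of its library, after TMM scaling within a line. Of the markers of the osteoblast lineage, COL1A1 was at 1411 to 1987 CPM in MG-63 and 613 to 1156 CPM in Saos2. ALPL and SP7 were at or below 0.470 and 0.627 CPM in MG-63 against at least 901 and 146 CPM in Saos2. RUNX2 was higher in Saos2 too, at 451 to 578 CPM. COL1A2, VIM, SPARC and PDGFRB were higher in MG-63. COL1A2 was at 1011 to 1427 CPM there against 7.45 to 9.54 in Saos2, and VIM at 4962 to 5974 against 614 to 932. SPARC was at 819 to 1089 CPM in MG-63 against 145 to 206 in Saos2, and PDGFRB at 19.1 to 40.9 against at most 0.448. With DMSO these markers summed to 8287 to 8651 CPM in MG-63 against 3211 to 3267 CPM in Saos2. The leukocyte-defining genes PTPRC and SPI1 reached at most 0.205 and 0.034 CPM in any library. Summed over their lists, blood markers stayed at or below 0.516 CPM, platelet markers at or below 0.0261 CPM and endothelial markers at or below 2.72 CPM. In MG-63 the endothelial sum was 2.18 to 2.72 CPM with DMSO, 0.386 to 0.758 with DDR and 0.368 to 1.20 with Roc, and CDH5 fell with both compounds (-2.39 ± 0.45 and -1.73 ± 0.43). Of the osteoblast-lineage markers, RUNX2 rose in MG-63 (1.11 ± 0.14 with DDR and 1.01 ± 0.14 with Roc on the log2 scale), PDGFRB rose there too (0.64 ± 0.13 and 0.77 ± 0.13), SP7 rose in Saos2 (0.75 ± 0.09 and 1.10 ± 0.09) and COL1A1 rose with Roc in Saos2 (0.79 ± 0.08). Their part in the results below was not tested.

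With vehicle, the lines differed in their leading integrin chains. ITGB1, the beta1 chain that pairs with most alpha chains, had the highest level per transcript length in both lines, at 642 ± 50.9 CPM per kilobase in MG-63 (SD, n = 2) and 396 ± 37.4 in Saos2 (SD, n = 3). In Saos2 the next level was that of ITGA4, the alpha4 chain of the receptor for VCAM-1 and fibronectin, at 205 ± 9.20 CPM per kilobase, well clear of ITGAV at 70.9 ± 5.14. In MG-63 ITGA4 stood ninth with 13.6 ± 0.114 CPM per kilobase, and ITGAV (49.0 ± 2.07), ITGA5 (37.8 ± 0.456) and ITGA3 (29.9 ± 0.775) were the leading alpha chains.

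**Figure D1:**
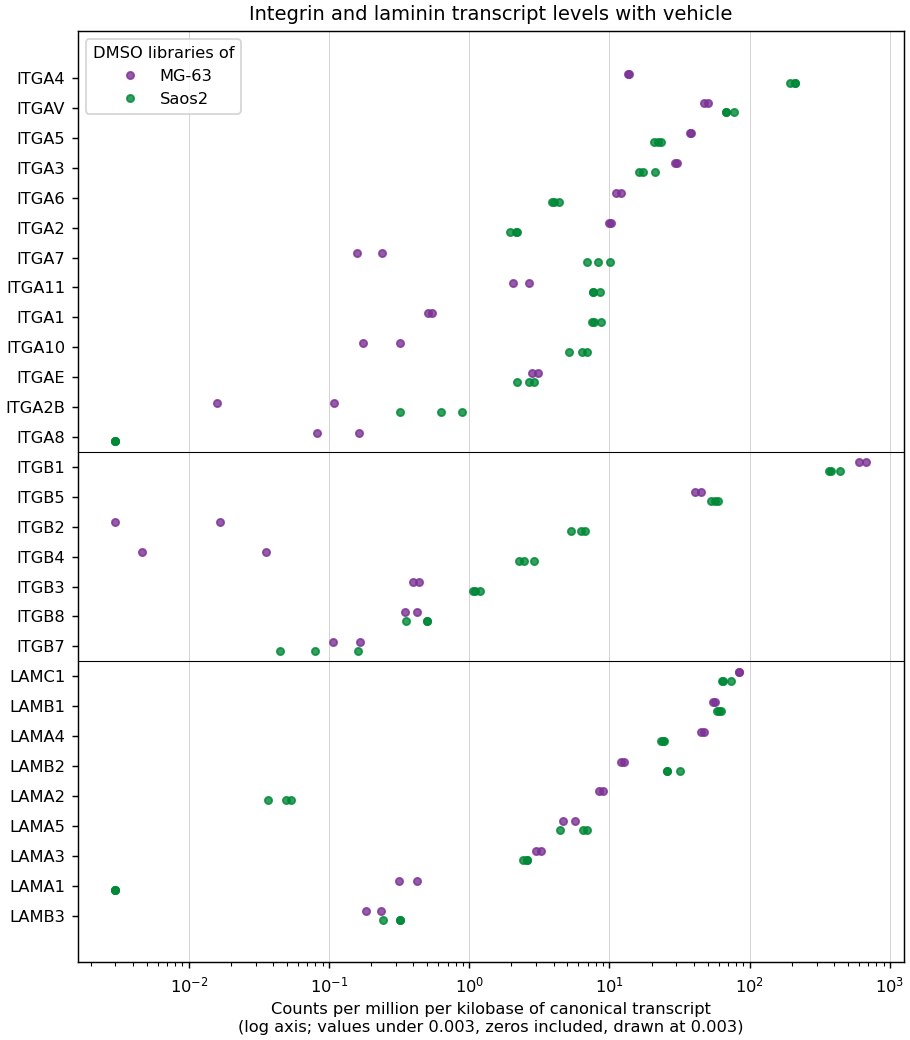
Level of 29 integrin and laminin genes in each DMSO library of MG-63 (purple) and Saos2 (green), as CPM per kilobase of the canonical transcript on a log axis, each line scaled on its own. ITGB1 leads in both lines. ITGA4 is at rank 9 in MG-63 (13.6 on average) and at rank 2 in Saos2 (205 on average), each within its own line.

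Among laminin chains the order began in both lines with LAMC1, the gamma chain common to most laminins (83.7 ± 0.614 CPM per kilobase in MG-63, 67.3 ± 5.00 in Saos2), and LAMB1 (55.6 ± 1.43 and 60.3 ± 2.31). Each line was scaled on its own, so these levels order genes within a line and do not compare the lines. LAMA4, the alpha chain of mesenchymal and vascular laminins, was the leading alpha chain in both (46.1 ± 1.44 and 23.9 ± 0.733). In MG-63, LAMB2 and ITGA6 (ranks 10 and 11) and LAMA3 and ITGAE (ranks 15 and 16) had overlapping ranges over the libraries. From ITGB3 (rank 19) down, nearly all neighbors in the MG-63 order overlapped as well. Among the 10 highest in Saos2, ITGAV overlapped LAMC1, LAMB1 overlapped ITGB5, and LAMA4, ITGA5 and ITGA3 formed a chain of overlapping neighbors. Dividing by merged exon length instead of the canonical transcript put ITGA4 (130) above ITGB1 (102) in Saos2 and ITGA5 (21.8) above ITGAV (17.9) in MG-63. The order of those genes therefore rests on the length used. Merged exon length also moved LAMB1 to rank 7 in each line.

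The line difference under vehicle was tested in a fit of all 15 libraries, in which 32 members were tested. A gene was called when its Benjamini-Hochberg adjusted p was at most 0.05 and its absolute log2 fold change at least 0.5. By this rule 23 of the 32 members differed between the lines, 10 higher in Saos2 and 13 lower, where 67.7% of all genes tested were called (36.3% higher and 31.4% lower). The members thus differed about as often as genes at large. Line, count table and annotation go together here and cannot be told apart.

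The differences were large for single chains. On the joint scale ITGA4 had 113 and 113 CPM in the MG-63 DMSO libraries and 1169, 1275 and 1297 CPM in those of Saos2, higher in every Saos2 library, with a log2 difference of 3.46 ± 0.09 (SE, edgeR adjusted p = 1.72e-20). ITGB2, the common beta chain of leukocyte integrins, had 0 and 0.0579 CPM against 16.7, 13.4 and 16.0 CPM in Saos2, although its alpha partners ITGAL, ITGAM, ITGAX and ITGAD had at most 4 counts in any library and PTPRC at most 8 counts in any Saos2 library. ITGB2-AS1, a transcript on the opposite strand that shares 4.2% of the ITGB2 exon length, had 43 to 142 counts in the Saos2 libraries.

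ITGB4, the beta chain that pairs with alpha6 in hemidesmosomes, was higher in Saos2 by 6.41 ± 0.34 on the log2 scale, and the muscle laminin receptor chain ITGA7 by 4.93 ± 0.32. ITGB4 had only 1 and 9 counts in the MG-63 DMSO libraries, and its difference ranged from 5.66 to 8.51 over the alternatives. The collagen receptor chains did not go one way. ITGA10, ITGA1 and ITGA11 were higher in Saos2, by 4.20 ± 0.22, 3.48 ± 0.13 and 1.30 ± 0.14, whereas ITGA2 was lower there, with a log2 difference of -2.72 ± 0.11.

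Other chains higher in Saos2 were ITGB3 (0.98 ± 0.22), the beta3 chain of vitronectin receptors, the platelet chain ITGA2B (2.78 ± 0.63) and LAMB2 (0.72 ± 0.11). ITGB3 shares 33.2% of its exon length with the joined EFCAB13 transcript, listed under the name ITGB3 only in the MG-63 table. The part of this overlap in the ITGB3 difference was not tested. ITGA2B had 45 to 95 counts in Saos2 DMSO libraries and 2 and 16 in those of MG-63. Among the chains higher in MG-63, LAMA2, the alpha chain of muscle laminin, had a log2 difference of -7.95 ± 0.23. LAMA1, an alpha chain of embryonic basement membranes, and ITGA8 had 0 counts in all 3 Saos2 DMSO libraries. Against a floor of 3 counts per library they were at least 59.1-fold and at least 13.3-fold higher in MG-63.

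ITGA5 (-1.23 ± 0.10), ITGA3 (-1.16 ± 0.11), ITGA6 (-1.94 ± 0.12) and ITGB1 (-1.14 ± 0.10), chains of the fibronectin and laminin receptors, were also lower in Saos2, as was LAMA4 (-1.40 ± 0.07). LAMC1 (-0.76 ± 0.09), LAMA3 (-0.76 ± 0.10) and ITGAE (-0.63 ± 0.16) were lower too, but fell short of the call when libraries were scaled by total counts (-0.29, -0.28 and -0.15). LAMB1 was not called, with a difference of -0.33 ± 0.08 under the fold minimum (edgeR adjusted p = 0.000634). ITGAV and ITGB5, which together form a vitronectin receptor, differed by 0.08 ± 0.09 and -0.06 ± 0.08, with 95% intervals of -0.09 to 0.26 and -0.23 to 0.11. With total-count scaling, which raised the median difference of all genes by 0.48, ITGAV was called higher in Saos2 (0.56 ± 0.07).

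The response to each rocaglate was then examined within each line. In MG-63, 28 members had enough counts to be tested, and few moved. With DDR, 1 was called higher (9.01% of all genes tested) and 1 lower (7.74% of all genes), 16.7% of all genes being called in either direction. With Roc, 1 was called higher (4.57% of all genes) and 0 lower (2.53% of all genes, 7.1% in either direction). Each comparison had 6 members with an unadjusted p under 0.05. The share of all genes under that p was not counted, so such numbers are not read as particular to the members. DESeq2 and limma-voom likewise called 1 higher and 1 lower with DDR, and with Roc 1 higher and 0 lower. The median log2 change of the tested members was -0.06 with DDR and 0.03 with Roc, beside -0.01 and 0.01 over all genes.

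ITGB8 (GRCh37, chromosome 7, 20370325 to 20455377, plus strand), the chain whose pairing with alphaV activates latent TGF-beta, rose with both compounds in MG-63. It had 3.10 and 3.82 CPM with DMSO, 8.85 and 6.12 with DDR, and 5.85 and 8.05 with Roc. Every treated library stood above both DMSO libraries. The log2 change was 1.11 ± 0.20 with DDR (edgeR adjusted p = 0.000163) and 1.01 ± 0.21 with Roc (edgeR adjusted p = 0.00125). In Saos2 ITGB8 was at 3.20 to 4.52 CPM with DMSO, and its changes of 0.00 ± 0.26 and 0.62 ± 0.25 were not called (edgeR adjusted p = 0.998 and 0.0557), although 6 alternatives called the Roc change (0.59 to 0.82). The difference between the lines was -1.07 ± 0.39 with DDR and -0.34 ± 0.39 with Roc, not called in either case, although 6 alternatives called that for DDR (-1.26 to -1.07).

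LAMA5 (GRCh37, chromosome 20, 60883011 to 60942368, minus strand), the alpha chain of the laminins most widespread in adult basement membranes, fell with DDR in MG-63. Its levels were 65.0 and 52.9 CPM with DMSO, 40.4 and 31.7 with DDR, and 44.2 and 52.6 with Roc. All treated libraries lay below those with DMSO, the highest Roc library by only a small margin. The log2 change was -0.71 ± 0.11 with DDR (edgeR adjusted p = 2.25e-05) and -0.28 ± 0.11 with Roc (edgeR adjusted p = 0.0795).

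ITGA4 in MG-63 came close to the fold minimum. Its levels were 93.0 and 91.9 CPM with DMSO, 126 and 134 with DDR, and 112 and 120 with Roc. The groups did not overlap. The log2 changes were 0.49 ± 0.07 with DDR (edgeR adjusted p = 1.38e-05) and 0.33 ± 0.07 with Roc (edgeR adjusted p = 0.003). Both were under 0.5. With no filter on low counts the DDR change was 0.52 and was called. It was 0.53 without DDR library 1 and 0.50 without DMSO library 1, each of which leaves 1 library in that group. Of the remaining tested members, LAMB2 with DDR (0.32 ± 0.10) and LAMA3 with Roc (0.37 ± 0.09) had adjusted p-values under 0.05 with changes under the minimum.

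In Saos2 more members were called. Of 27 tested members, DDR lowered 7 (6.73% of all genes tested were called lower) and raised 0 (7.55% of all genes), 14.3% of all genes being called in either direction. DESeq2 and limma-voom also called 7 lower and 0 higher. In edgeR 13 members had an unadjusted p under 0.05, a count again without the share of all genes. The 7 were 4 of 12 tested alpha chains and 3 of 7 tested beta chains, and 0 of 8 tested laminin chains were called. Of these laminin chains, LAMA4 (0.44 ± 0.07) and LAMC1 (-0.23 ± 0.08) missed only the fold minimum. With Roc 9 members fell (10.4% of all genes) and 2 rose (13.5% of all genes), 23.8% of all genes being called. By class, 5 alpha chains, 3 beta chains and LAMB1 fell, and ITGB7 and LAMB3 rose. The median log2 change of the tested members was -0.21 with DDR and -0.38 with Roc, beside -0.01 and -0.02 over all genes, and 21 and 19 of the 27 changes were negative. As in any bulk measurement, fewer cells of a kind and less RNA per cell cannot be told apart in these levels.

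**Figure D2:**
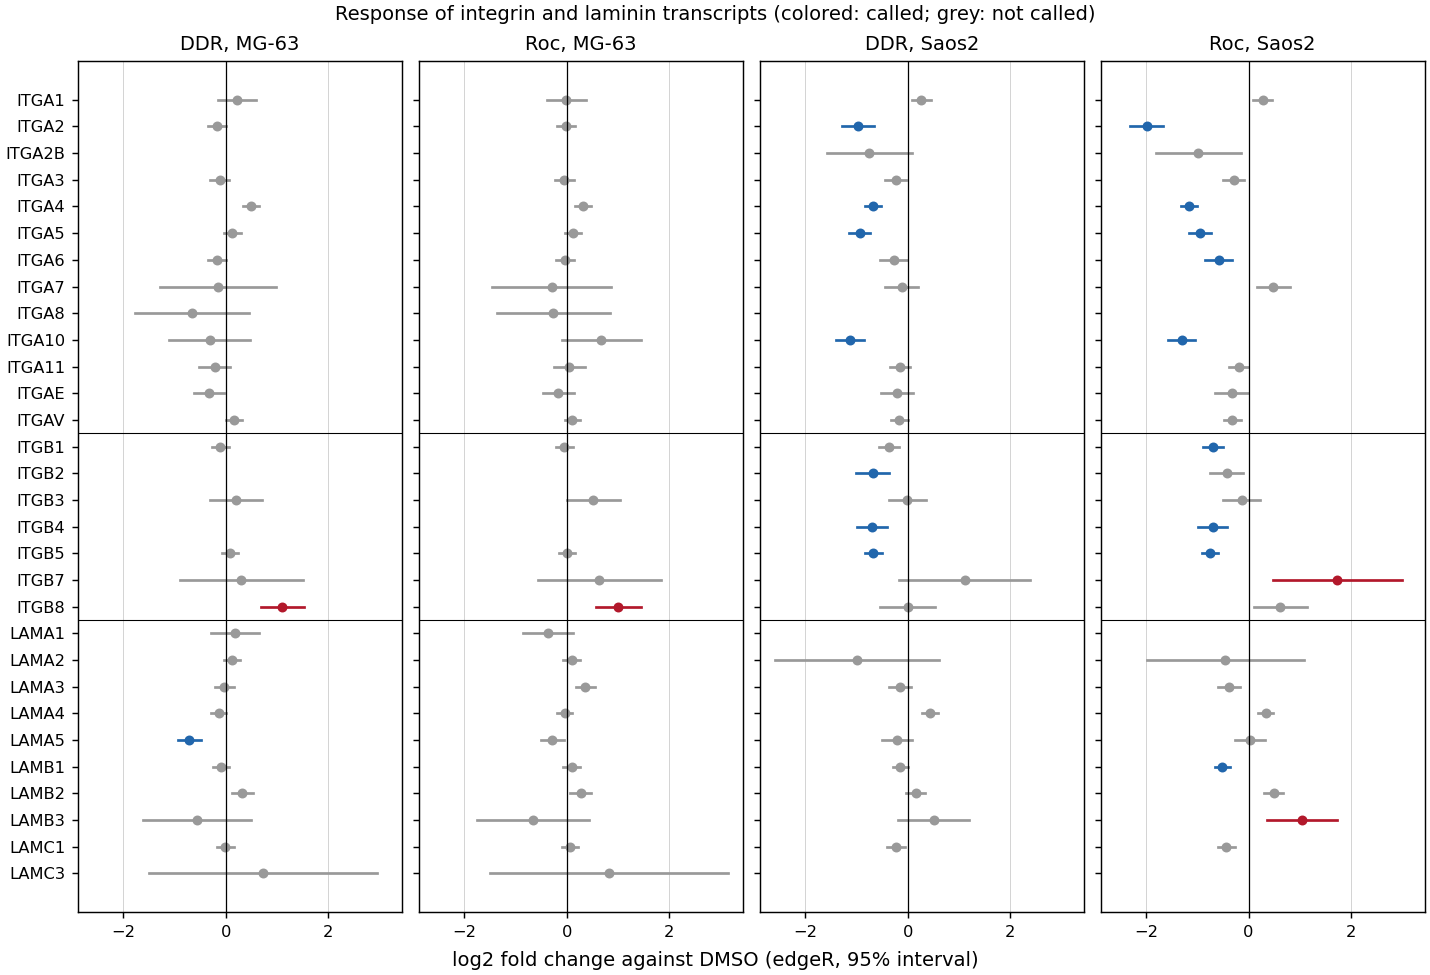
log2 fold change against DMSO, with 95% intervals, of 30 members tested in at least 1 line, in rows, for each compound and line, in panels. Colored points were called (red higher, blue lower) and grey points were not. Calls in MG-63 are ITGB8 and LAMA5. In Saos2 7 members fell with DDR, and with Roc 9 fell and 2 rose. Of all genes tested, 16.7% (DDR) and 7.1% (Roc) were called in MG-63, and 14.3% and 23.8% in Saos2. MG-63 had 2 libraries a group and Saos2 had 3.

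ITGA4, on chromosome 2 (GRCh37, 182321929 to 182403667, plus strand), was the most abundant alpha chain in Saos2 and fell with both compounds. Its levels were 1317, 1416 and 1433 CPM with DMSO, 846, 805 and 946 with DDR, and 643, 590 and 621 with Roc. The groups were fully separated, with DDR between DMSO and Roc. The log2 change was -0.68 ± 0.08 with DDR (edgeR adjusted p = 5.13e-07) and -1.17 ± 0.08 with Roc (edgeR adjusted p = 6.91e-11). CERKL, a gene on the opposite strand that shares 26.4% of the ITGA4 exon length, had 2 to 28 counts in the Saos2 libraries, against 18669 to 57574 for ITGA4.

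ITGA5 (GRCh37, chromosome 12, 54789045 to 54813050, minus strand), the alpha chain of the classical fibronectin receptor, had 99.6, 93.7 and 88.1 CPM with DMSO in Saos2. Its levels were 45.3, 57.4 and 44.5 CPM with DDR, and 53.7, 45.4 and 46.7 with Roc. Both treated groups lay below DMSO and overlapped each other, with log2 changes of -0.93 ± 0.10 (edgeR adjusted p = 3.94e-07) and -0.95 ± 0.10 (edgeR adjusted p = 1.13e-07).

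Of the collagen receptor chains, ITGA2 fell most with Roc. ITGA2 had 16.8, 15.2 and 17.1 CPM with DMSO in Saos2, 8.07, 7.96 and 9.08 with DDR, and 3.31, 4.35 and 4.68 with Roc. The groups were again fully separated, and the log2 changes were -0.97 ± 0.15 (edgeR adjusted p = 3.35e-05) and -1.99 ± 0.15 (edgeR adjusted p = 1.13e-09). ITGA10, a collagen receptor chain known from cartilage, had 35.2, 32.5 and 26.5 CPM with DMSO, 12.9, 16.7 and 13.7 with DDR, and 12.7, 12.1 and 13.2 with Roc. Every treated library was below every DMSO library, with log2 changes of -1.12 ± 0.13 (edgeR adjusted p = 9.53e-07) and -1.31 ± 0.13 (edgeR adjusted p = 3.92e-08).

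ITGA1 lies beside ITGA2 on chromosome 5 (GRCh37, plus strand, 52083750 to 52255039 for ITGA1 and 52285170 to 52390609 for ITGA2) and also encodes a collagen receptor chain. It was not called, with 80.0, 82.6 and 92.6 CPM with DMSO, 98.5, 94.5 and 115 with DDR, and 109, 94.1 and 106 with Roc in Saos2. All treated libraries were above those with DMSO, and the log2 changes were 0.27 ± 0.09 and 0.28 ± 0.09, under the fold minimum. PELO, a same-strand gene that shares 2.7% of the ITGA1 exon length, had a log2 change of 0.63 ± 0.11 with Roc and was called. ITGA11, the collagen receptor chain of fibroblasts, changed by -0.15 ± 0.09 and -0.19 ± 0.09 and was not called.

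Laminin receptor chains differed among themselves. ITGA7 was at 41.9, 34.1 and 28.6 CPM with DMSO in Saos2 and at 48.7, 50.8 and 46.9 with Roc, above every DMSO library. Its log2 change of 0.49 ± 0.15 with Roc (edgeR adjusted p = 0.0148) lay just under the minimum and was called with limma-voom (0.52) and without DMSO library 1 (0.59), and that with DDR was -0.11 ± 0.15. ITGA3 was not called with either compound. ITGA6 had 22.7, 23.5 and 25.5 CPM with DMSO in Saos2, 19.2, 20.5 and 19.5 with DDR, and 19.2, 13.2 and 15.6 with Roc, below DMSO in every treated library. The Roc change of -0.58 ± 0.13 was called (edgeR adjusted p = 0.000783), and the DDR change of -0.27 ± 0.13 was not (edgeR adjusted p = 0.114). Its partner ITGB4 had 17.0, 13.4 and 14.4 CPM with DMSO, 8.39, 10.4 and 9.02 with DDR, and 9.23, 8.83 and 9.46 with Roc. ITGB4 fell by 0.69 ± 0.14 with DDR (edgeR adjusted p = 0.000679) and by 0.70 ± 0.14 with Roc (edgeR adjusted p = 0.000317) on the log2 scale, and all treated libraries lay below those with DMSO.

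The beta1 chain itself was lowered by Roc. ITGB1 had 1373, 1430 and 1638 CPM with DMSO in Saos2, 1119, 1021 and 1307 with DDR, and 979, 802 and 950 with Roc. No treated library reached the lowest DMSO library. The log2 change of -0.70 ± 0.09 with Roc was called (edgeR adjusted p = 3.20e-06), and that of -0.37 ± 0.09 with DDR lay under the fold minimum (edgeR adjusted p = 0.00538).

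ITGB5 (GRCh37, chromosome 3, 124480795 to 124620265, minus strand), the beta chain of a vitronectin receptor, had 262, 251 and 235 CPM with DMSO in Saos2, 149, 168 and 154 with DDR, and 154, 136 and 154 with Roc. The treated groups overlapped each other well below DMSO, with log2 changes of -0.67 ± 0.08 (edgeR adjusted p = 1.20e-06) and -0.75 ± 0.08 (edgeR adjusted p = 8.16e-08). Its alpha partner ITGAV changed less, by -0.16 ± 0.08 and -0.31 ± 0.08, and was not called. ITGB2 had 18.9, 14.9 and 17.7 CPM with DMSO, 9.39, 11.5 and 11.3 with DDR, and 15.9, 10.0 and 12.4 with Roc. It fell with DDR (-0.68 ± 0.16, edgeR adjusted p = 0.00212), and the Roc change of -0.43 ± 0.15 lay under the minimum, with 1 Roc library inside the DMSO range. That change was called with total-count scaling (-0.52), without DMSO library 2 (-0.56) and without Roc library 1 (-0.64). The opposite-strand ITGB2-AS1 had 48 to 87 counts with DMSO, 43 to 74 with DDR and 93 to 142 with Roc.

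**Figure D3:**
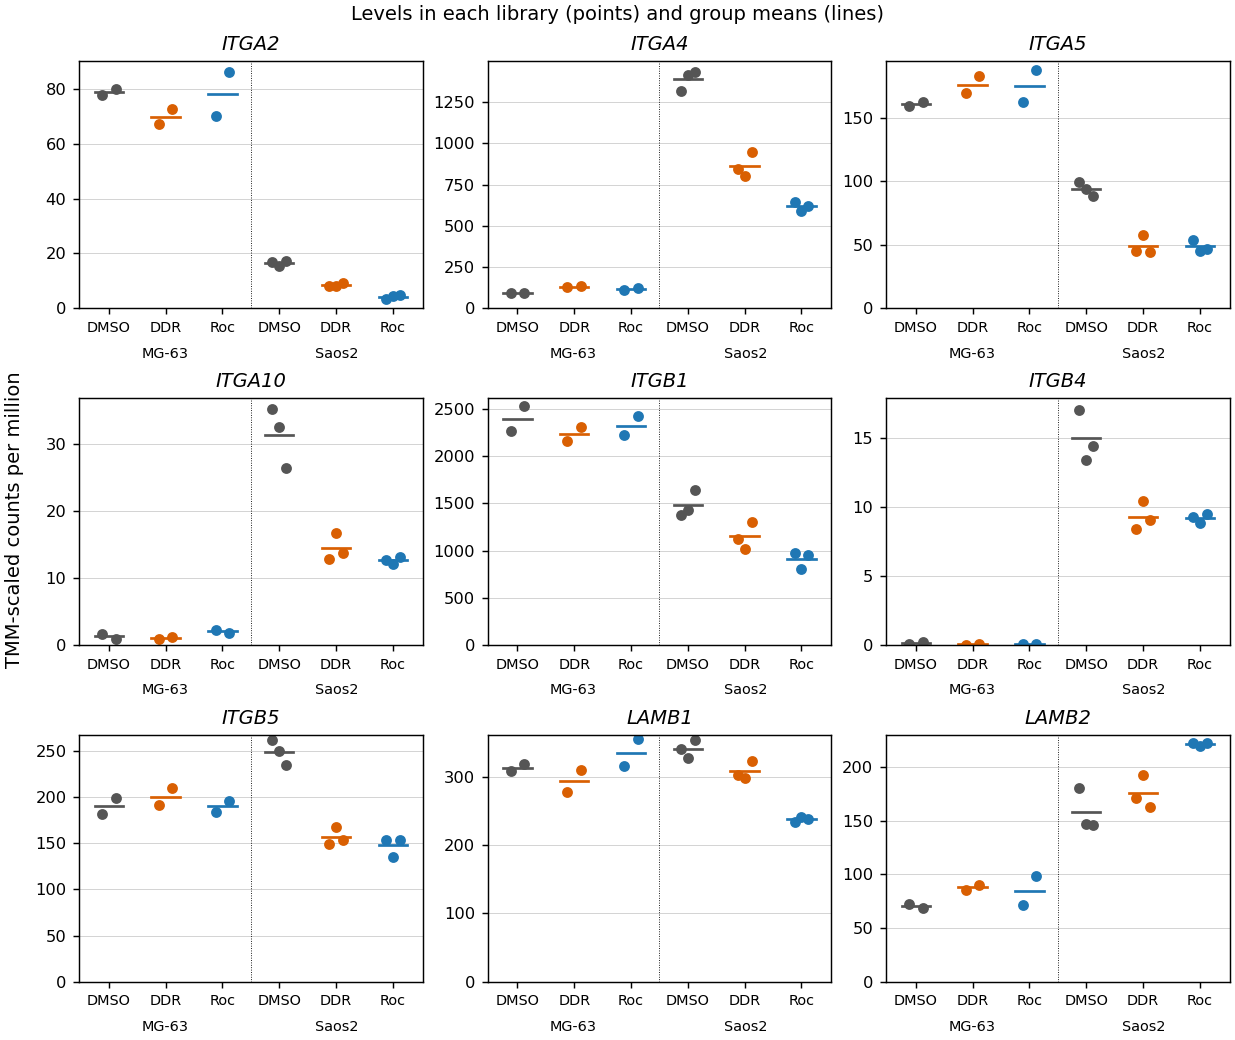
CPM in each library (points) and group means (lines) of 9 members, for DMSO, DDR and Roc in MG-63 and Saos2, on axes that start at 0. The Saos2 libraries separate by treatment for ITGA2 and ITGA4, whereas in MG-63 ITGA2 spans 67.3 to 86.1 CPM over all groups.

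The chains that rose with Roc in Saos2 were scarce. ITGB7 (GRCh37, chromosome 12, 53585107 to 53601066, minus strand), a beta chain of lymphocyte homing receptors, had 14, 5 and 9 counts with DMSO, 30, 15 and 10 with DDR, and 26, 42 and 25 with Roc. Its log2 change with Roc was 1.73 ± 0.61 (edgeR adjusted p = 0.0273) and ranged from 1.36 to 1.69 where the call was lost, without DMSO library 2 or 3 or Roc library 1 or 2. ZNF740 on the opposite strand shares 42.3% of the ITGB7 exon length and had 1216 to 1939 counts in the Saos2 libraries. Its own log2 change with Roc was 0.41 ± 0.10, and its part in the ITGB7 counts was not tested.

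LAMB3, a chain of epidermal laminin, had 30, 51 and 52 counts with DMSO, 40, 70 and 48 with DDR, and 76, 76 and 106 with Roc. Its log2 change with Roc was 1.04 ± 0.33 (edgeR adjusted p = 0.015), and without DMSO library 1, Roc library 1 or Roc library 3 it was 0.88, 0.96 or 0.90 and no longer called. LAMA3, the alpha chain of that laminin, changed by -0.38 ± 0.10. Epithelial marker genes summed to 16.2 to 23.4 CPM in Saos2, nearly all from EPCAM, which changed by -0.26 ± 0.13 with Roc and was not called.

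Of the laminin beta chains in Saos2, LAMB1 fell with Roc. LAMB1 had 341, 328 and 354 CPM with DMSO, 303, 298 and 324 with DDR, and 235, 242 and 238 with Roc. Roc libraries lay apart from all others, with a log2 change of -0.52 ± 0.07 (edgeR adjusted p = 3.42e-06), which was -0.49 and under the minimum without DMSO library 3. LAMB2, the beta chain of synaptic and kidney laminins, had 181, 147 and 146 CPM with DMSO, 172, 193 and 163 with DDR, and 222, 220 and 223 with Roc, a change of 0.49 ± 0.09 that just missed the minimum (edgeR adjusted p = 9.70e-05). Every Roc library was above every DMSO library of LAMB2.

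LAMA4, LAMC1 and LAMA5 were not called in Saos2. LAMA4 had 167, 178 and 173 CPM with DMSO, 221, 230 and 250 with DDR, and 221, 213 and 218 with Roc. Both treated groups lay above DMSO, with log2 changes of 0.44 ± 0.07 and 0.33 ± 0.07 (edgeR adjusted p = 7.75e-05 and 0.000733). LAMC1 changed by -0.23 ± 0.08 and -0.43 ± 0.08, and its Roc change was called with total-count scaling (-0.52) and without DMSO library 1 or Roc library 1 (-0.51 in each case). LAMA5 changed by -0.21 ± 0.14 and 0.02 ± 0.14.

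Shares of the per-length level within a class of chains describe the same libraries. ITGA4 made up 55.6 to 58.9% of the summed alpha chain level in the Saos2 DMSO libraries, 48.7 to 52.1% with DDR and 42.6 to 43.9% with Roc. The summed alpha level itself was 349 to 364 CPM per kilobase with DMSO, 244 to 268 with DDR and 198 to 220 with Roc. The share of ITGAV, whose own change was not called, was 19.2 to 21.1% with DMSO and 26.2 to 28.2% with Roc.

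In MG-63 the summed alpha chain level was 156 to 161 CPM per kilobase with DMSO, 164 to 171 with DDR and 157 to 178 with Roc. ITGA4 held 8.41 to 8.80% of it with DMSO, 11.4 to 11.5% with DDR and 9.92 to 10.5% with Roc. Within the laminin beta chains of Saos2, LAMB2 took 29.0 to 34.4% with DMSO, 33.2 to 38.9% with DDR and 47.2 to 48.1% with Roc, near that of LAMB1 after Roc. By merged exon length the LAMB2 share was 52.4 to 58.7% with DMSO and 70.5 to 71.1% with Roc, so the order of both chains depends on the length used. Shares in a class are tied to each other and were not tested.

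**Figure D4:**
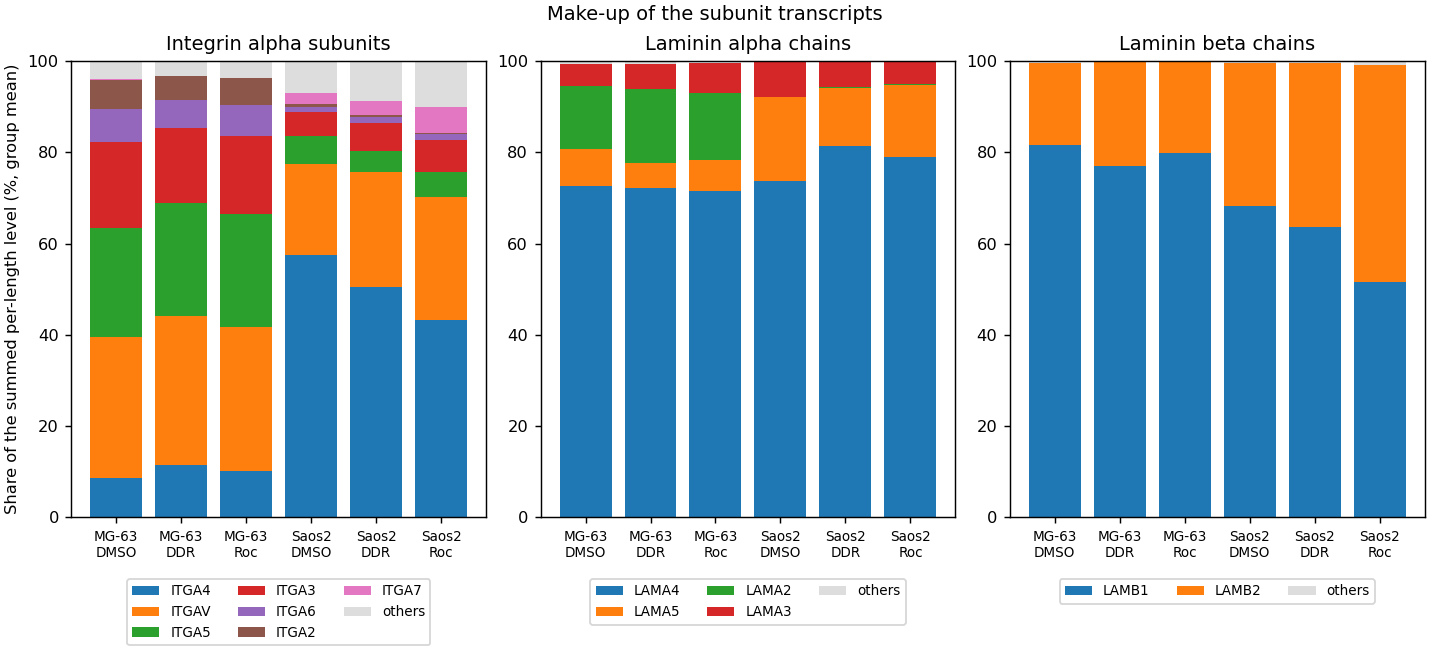
Mean share (%) of each chain in the summed CPM per kilobase of integrin alpha chains, laminin alpha chains and laminin beta chains, for each line and treatment. The ITGA4 share in Saos2 goes from 57.5% with DMSO to 50.5% with DDR and 43.2% with Roc, and the LAMB2 share from 31.4% to 36.0% and 47.7%.

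Whether the responses differed between the lines was tested as an interaction in the 15-library fit. For DDR, 5 of 32 members were called (13.3% of all genes tested), 1 higher in Saos2 (6.96% of all genes) and 4 lower (6.31%). For Roc 10 of 32 were called (13.0% of all genes), 1 higher (8.37%) and 9 lower (4.63%). ITGA4, ITGA5, ITGA2 and ITGB5 responded more negatively in Saos2 with both compounds. The log2 difference (Saos2 minus MG-63) was -1.14 ± 0.11 with DDR and -1.45 ± 0.11 with Roc for ITGA4, and -1.03 ± 0.15 with each compound for ITGA5.

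For ITGA5 the MG-63 libraries had 159 and 162 CPM with DMSO, 169 and 183 with DDR, and 162 and 188 with Roc, where no change was called. ITGB5 had 182 and 199 CPM with DMSO in MG-63, 192 and 210 with DDR, and 184 and 196 with Roc, and its differences between the lines were -0.71 ± 0.12 with each compound. ITGA2 had 77.9 and 80.0 CPM with DMSO, 67.3 and 72.6 with DDR, and 70.2 and 86.1 with Roc in MG-63. In MG-63 the treated libraries of ITGB5 overlapped DMSO, whereas ITGA2 and ITGA5 with DDR did not overlap DMSO there. With Roc, ITGA5 cleared DMSO by only a bare margin (162.4 CPM in the lowest Roc library, 162.2 in the highest DMSO library).

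With Roc, differences were also called for ITGA10 (-1.94 ± 0.31), ITGB1 (-0.61 ± 0.14), LAMA3 (-0.70 ± 0.14), LAMB1 (-0.57 ± 0.11), ITGA6 (-0.50 ± 0.17) and LAMB3 (1.74 ± 0.57). Whether the line differences depend on the compound was not tested. That of ITGA6 was lost without any 1 of 8 libraries, that of LAMB3 with limma-voom, total-count scaling, no count filter and without any 1 of 8 libraries, and that of LAMB1 without MG-63 Roc library 2. ITGA10 had 38 to 60 counts in the MG-63 DMSO libraries and 54 and 63 with Roc. Its difference for DDR, -0.78 ± 0.33, was not called (edgeR adjusted p = 0.103). That difference was called with DESeq2 (-0.81) and without Saos2 DDR library 2 (-0.90), and was -1.26 without MG-63 DMSO library 1. LAMA3 was called in neither line (0.37 ± 0.09 in MG-63, -0.38 ± 0.10 in Saos2). With DDR a difference was also called for LAMA4 (0.61 ± 0.11), and its difference for Roc was 0.42 ± 0.11.

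**Figure D5:**
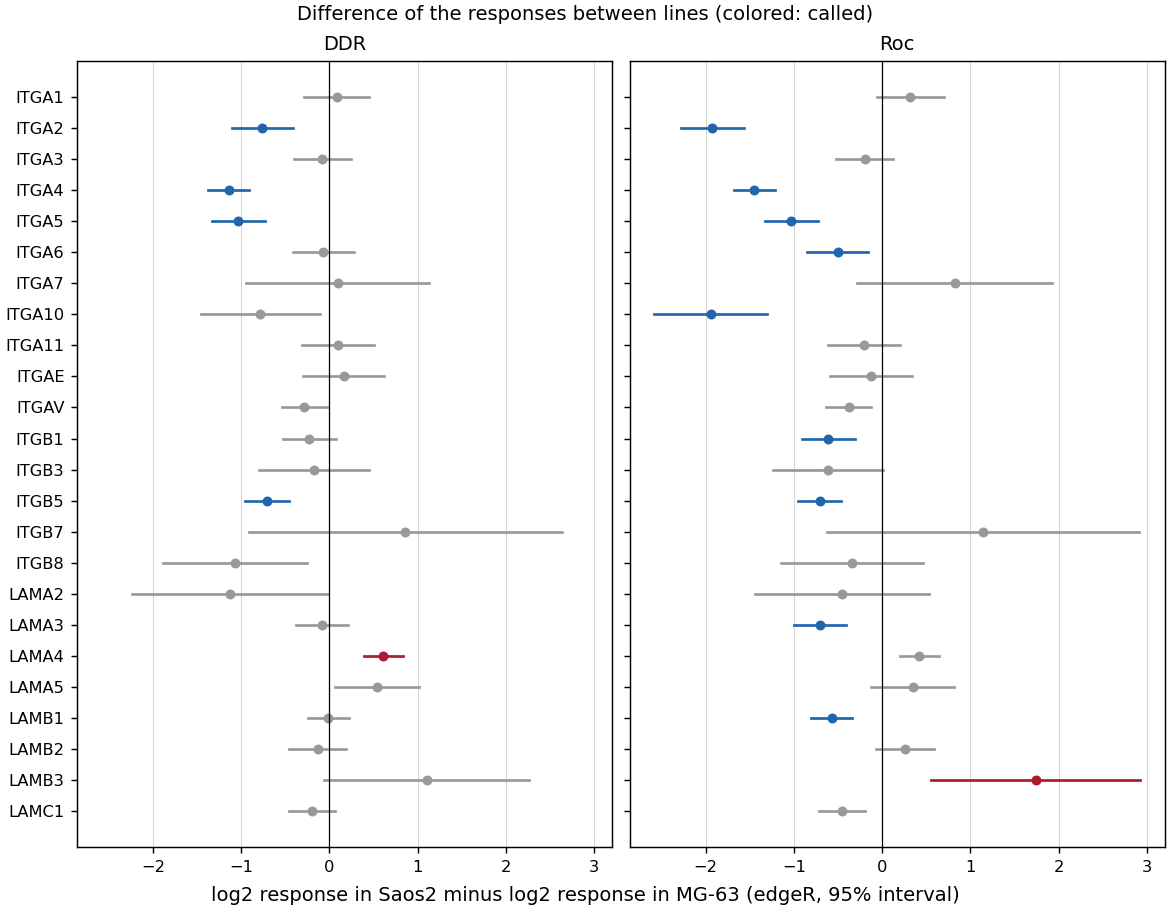
Difference of the log2 response between the lines (Saos2 minus MG-63), with 95% intervals, for DDR and Roc, over the 24 members tested in each line. Colored points were called, and ITGA2, ITGA4, ITGA5 and ITGB5 lie left of 0 with both compounds.

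Roc and DDR were set against each other at their unequal doses. In MG-63 edgeR called 0 of 28 members (1.2% of all genes tested, 0.647% higher and 0.555% lower), and DESeq2 and limma-voom also called 0. An unadjusted p under 0.05 was found for 6 members, again without the share of all genes. In Saos2 2 of 27 were called, 1 higher (2.46% of all genes) and 1 lower (1.3%), where 3.76% of all genes were called. ITGA2 was lower with 40 nM Roc than with 7 nM DDR by a log2 difference of -1.02 ± 0.16 (edgeR adjusted p = 0.000215). ITGA7 was at 29.5, 43.0 and 24.3 CPM with DDR and at 48.7, 50.8 and 46.9 with Roc, a difference of 0.60 ± 0.15 (edgeR adjusted p = 0.0153). The ITGA7 call was lost with DESeq2, with total-count scaling, and without DDR library 1 or 3 or Roc library 1 or 2 (0.43 to 0.59 over these). Total-count scaling called 0 members higher and 2 lower. The difference of ITGA4, -0.49 ± 0.07, lay just under the minimum and was called under 10 alternatives (-0.56 to -0.49). These include the main fit with no fold minimum, which drops the only rule this difference failed. For ITGA5, ITGB4 and ITGB5 the differences were -0.01, -0.01 and -0.09, with 95% intervals of -0.22 to 0.20, -0.31 to 0.28 and -0.25 to 0.08.

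Members with too few counts to be tested were 10 in MG-63 and 11 in Saos2, 7 of them in both. These 7 were ITGA9, a relative of ITGA4, the leukocyte chains ITGAD, ITGAL, ITGAM and ITGAX, the epithelial chain ITGB6 and LAMB4. In MG-63 the others were ITGA2B (at most 16 counts in a library), ITGB2 (2) and ITGB4 (9). In Saos2 they included ITGA8 (0), LAMA1 (1) and LAMC3 (14). ITGA9 reached 20 counts in a Saos2 Roc library and 0 in another, and ITGB6 reached 10 counts with DDR in Saos2.

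Other changes against DMSO were not called. In Saos2 these included ITGA3 (-0.23 ± 0.10 with DDR and -0.29 ± 0.10 with Roc), ITGB3 (0.00 ± 0.17 and -0.13 ± 0.17) and ITGAE (-0.20 ± 0.15 and -0.33 ± 0.15). ITGAE pairs with ITGB7 to bind E-cadherin. ITGA2B, at 24 to 95 counts in Saos2, changed by -0.75 ± 0.40 and -0.98 ± 0.40, and its Roc change was called under 8 alternatives (-1.29 to -0.95). In MG-63 ITGB1 changed by -0.10 ± 0.08 and -0.05 ± 0.08, LAMC1 by 0.00 ± 0.08 and 0.06 ± 0.08, and LAMA2 by 0.12 ± 0.08 and 0.10 ± 0.08. The uncalled changes reported for MG-63 ranged from -0.66 ± 0.54 (ITGA8) to 0.73 ± 1.08 (LAMC3) with DDR and from -0.65 ± 0.53 (LAMB3) to 0.83 ± 1.12 (LAMC3) with Roc, LAMC3 having 1 to 12 counts in these libraries.

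The genes around these receptors and ligands were read from 5 lists, against the same shares of all genes called as above. In MG-63 those called higher and lower were 9.01% and 7.74% with DDR, and 4.57% and 2.53% with Roc. For Saos2 the shares were 7.55% and 6.73% with DDR, and 13.5% and 10.4% with Roc. Of 11 tested basement membrane partners of laminins, in MG-63 DDR raised 2 and lowered 2 and Roc raised 1 and lowered 1, and in Saos2 each compound lowered 3. COL4A5, a chain of type IV collagen, fell in MG-63 with DDR (-1.45 ± 0.15) and Roc (-0.54 ± 0.15) and in Saos2 with Roc (-2.03 ± 0.64). COL4A2, the partner of the most widespread type IV collagen, rose with DDR in MG-63 (0.75 ± 0.10), and SMOC1, a secreted calcium-binding matrix protein, fell (-0.86 ± 0.11).

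Among other integrin ligands, 14 were tested in MG-63, where DDR raised 7 and lowered 1 and Roc raised 3 and lowered 1. Of 16 tested in Saos2, DDR raised 3 and lowered 4 and Roc raised 4 and lowered 4. IBSP, bone sialoprotein, a ligand of alphaV integrins, fell in Saos2 by 1.40 ± 0.09 with DDR and by 3.18 ± 0.10 with Roc on the log2 scale. POSTN, periostin, fell in MG-63 by 1.53 ± 0.08 and 1.11 ± 0.08. CYR61, a matricellular ligand, rose in Saos2 by 0.61 ± 0.09 and 1.46 ± 0.10.

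Of the integrin activation and adaptor proteins, 30 were tested in MG-63 and 31 in Saos2, and in MG-63 DDR raised 4 and lowered 1 whereas Roc raised 1. In Saos2, DDR raised 1 and lowered 1, and Roc raised 5 and lowered 1. VCL, vinculin of focal adhesions, fell in Saos2 (-0.63 ± 0.08 and -0.80 ± 0.08), while KANK2, a talin-binding protein, and FERMT2, the integrin activator kindlin-2, rose there with Roc (0.75 ± 0.08 and 0.74 ± 0.08).

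Of 16 tested membrane partners and trafficking genes, each compound raised 2 and lowered 1 in MG-63. In Saos2, DDR raised 3 and lowered 5, and Roc raised 3 and lowered 3. ARF6, a small GTPase of integrin recycling, rose in all 4 comparisons, by 1.16 ± 0.08 and 0.77 ± 0.09 in MG-63 and by 1.17 ± 0.08 and 1.60 ± 0.08 in Saos2 with DDR and Roc. RAB21, which carries internalized integrins, rose in Saos2 (0.56 ± 0.08 and 1.01 ± 0.08), and SLC3A2, a membrane partner of beta1 integrins, rose in MG-63 (1.17 ± 0.08 and 0.83 ± 0.08). With DDR, CD151, CD63, CD81, CD82 and TSPAN4 fell in Saos2, and with Roc CD63, CD81 and CD82.

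Latent TGF-beta is held in the matrix and released by alphaV integrins. Of its genes, 7 were tested in MG-63 and 6 in Saos2, and in MG-63 DDR raised 1. In Saos2, DDR raised 1 and lowered 1, and Roc raised 2 and lowered 1. TGFB1 fell in Saos2 (-0.81 ± 0.08 with DDR and -0.61 ± 0.08 with Roc), whereas TGFB2 rose there (0.72 ± 0.12 and 1.02 ± 0.12) and with DDR in MG-63 (1.10 ± 0.20). LTBP1, which anchors the latent complex to the matrix, rose with Roc in Saos2 (0.57 ± 0.09).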

How the data were processed

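RNA of MG-63 and Saos2 cells was sequenced as TruSeq stranded mRNA libraries in paired 100-bp reads. The authors removed mitochondrial, ribosomal and transfer RNA with Bowtie 2 (2.5.1), aligned to GRCh37/hg19 with STAR (2.7.3a) and deposited raw counts per gene from HTSeq (0.11.2). The strand setting of HTSeq and the release of its gene annotation were not given in the sources used here. Neighbors on the opposite strand are therefore named beside a gene. Of the deposited per-sample columns, the 15 raw count columns were used. The other 55 were not, nor were the authors' DESeq2 comparison tables (fold changes and p-values).

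Counts were tested in R 4.3.3 with the quasi-likelihood test of edgeR 4.0.16 (filterByExpr, TMM), the 3 groups of a line fitted together. Differences between lines came from 1 fit of all 15 libraries as 6 groups over the 52684 IDs that both tables hold. p-values were adjusted by Benjamini-Hochberg over all genes tested: 15303 in MG-63, 17593 in Saos2 and 18842 jointly. Each SE was the log2 change divided by the root of its F statistic. Intervals are 95%. Levels of different genes were compared as CPM per kilobase of the canonical transcript (GENCODE v44 lifted to GRCh37). FPKM had been planned for this and was not used here. The script was tested on simulated counts. Alternatives were DESeq2 1.42.0, limma-voom (limma 3.58.1), RLE and total-count scaling, other filters, no fold minimum, a replicate block, only the groups compared, leaving out each library, and merged exon lengths. Floors (3 counts per library) cover counting error only.

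The members, gene lists and thresholds were chosen with earlier results of these data known. Members called against DMSO, between lines or between compounds are described singly, except 1 that is counted but not reported here, and of each list the 3 genes with the smallest p are named.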

Additional observations from a re-analysis of the deposited data

Results flagged for a closer look

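The response to a rocaglate differed between Saos2 and MG-63 for these members, each by the interaction of line and treatment in the 15-library edgeR fit (log2 response in Saos2 minus that in MG-63). With DDR the difference was -1.14 for ITGA4, -1.03 for ITGA5, -0.76 for ITGA2, -0.71 for ITGB5 and 0.61 for LAMA4. With Roc the integrin chains differed by -1.94 (ITGA10), -1.92 (ITGA2), -1.45 (ITGA4), -1.03 (ITGA5), -0.71 (ITGB5), -0.61 (ITGB1) and -0.50 (ITGA6). The laminin chains differed with Roc by -0.70 (LAMA3), -0.57 (LAMB1) and 1.74 (LAMB3). Doses differed between the lines, and line and dose cannot be told apart.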

How the results depend on the processing

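Of 61 member calls over 9 comparisons, 51 were kept under every alternative in which the gene was tested, and 0 reversed. All 7 calls for DDR in Saos2 were among those kept. Without the fold minimum the calls against DMSO were 4 (DDR, MG-63), 3 (Roc, MG-63), 11 (DDR, Saos2) and 20 (Roc, Saos2) in place of 2, 1, 7 and 11. Between compounds the counts became 2 (MG-63) and 6 (Saos2) in place of 0 and 2. The share of all genes called without the minimum is not given here. These counts therefore show only how the calls depend on the threshold. DESeq2 called 1 member between compounds in Saos2, and without a filter on low counts the DDR response differed between lines for 8 members in place of 5.

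Leaving out each library gave 0 to 2 calls between compounds for MG-63 and 1 to 4 for Saos2. The MG-63 calls were LAMA5 without DDR library 1, and LAMA5 and ITGA11 without Roc library 1. For Saos2 there was 1 call without DDR library 3 or Roc library 2, and 4 without Roc library 3. The Roc response difference of LAMB3 was not called under 11 alternatives (1.54 to 1.91, adjusted p up to 0.176 and limma-voom 0.0645), and that of ITGA6 was not called without any 1 of 8 libraries (-0.58 to -0.37). For LAMB1 it was -0.45 without MG-63 Roc library 2. ITGB7 was not tested at a mean of at least 1 CPM. Total-count scaling moved the median line difference of all genes from 0.16 to 0.64 and gave 11 members higher and 10 lower in Saos2 in place of 10 and 13.

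For the adhesion lists, dropping the fold minimum took the MG-63 calls from 21 to 40 with DDR and from 10 to 28 with Roc, and those of Saos2 from 22 to 38 and from 26 to 47. Here too the share of all genes called without the minimum is not given. Total-count scaling split the calls for Roc in Saos2 into 11 higher and 16 lower in place of 14 and 12. Leaving out each library gave 6 to 12 calls for Roc in MG-63, with 6 without Roc library 2. Merged exon lengths kept the 10 highest genes of Saos2 and 9 of the 10 in MG-63.

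A fit of only the groups compared was not run for the line comparisons. Deviations of same-numbered libraries correlated only weakly (from -0.01 to 0.02 for MG-63, from 0.00 to 0.14 for Saos2). In Saos2 all same-numbered pairs were positive, whereas differently numbered pairs ran from -0.11 to 0.03. In MG-63, with 2 libraries a group, each correlation returned with opposite sign in differently numbered pairs. Whether the numbers pair samples therefore cannot be decided from these correlations. A replicate block gave 2, 1, 7 and 13 calls against DMSO and 7 and 10 for the line differences of DDR and Roc. With 2 libraries a group in MG-63, changes near the fold minimum are the least certain.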
